A study of Mus musculus with 11 samples.

Results

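Serpins, plasminogen activators and coagulation regulators were represented by 9 of the 28222 genes in the count table of mouse mesenchymal stem cells (MSCs). The genes were Serpine2, Serpinf1, Serpinh1, Plat, Plau, Plaur, Thbd, F3 and Tfpi, and all of them passed the filter on low counts in each comparison. They were chosen by name, with the level per library (CPM, counts per 1000000 counts of a library) of these libraries already known, so their levels and differences are given as a description and no p-value is printed for them. Together they made up 0.436% to 0.627% of the counts of a library, and the highest share was found in batch B young replicate 2. All 9 genes are annotated as protein-coding, and no other annotated gene overlapped them.

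Polyadenylated RNA was measured by single-end RNA-seq in 11 libraries of MSCs, stromal cells that give rise to osteoblasts and adipocytes. The young libraries came from mice of 3 to 5 months and the old libraries from mice of 18 to 22 months, and every culture was kept at 2% oxygen. The 4 libraries of batch A were young, those of batch B were 2 young and 2 old, and the 3 of batch C were old, so age and batch could be separated within batch B alone. The methods of the study describe endosteal cells of wild-type C57BL/6 N males that were sorted as CD45-/Ter-119-/Sca-1+/CD140a+; those methods concern cells kept at different oxygen levels, and are taken to hold here too. No transgene, deletion or drug is named for any group. It is not stated whether libraries of a group came from separate animals or cultures, so the errors and p-values measure the spread between these libraries, which may be technical.

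The proteins of these genes control where and when proteolysis occurs outside the cell. Plasminogen is cut to the active protease plasmin by tissue-type plasminogen activator (Plat) and by urokinase (Plau), which is held at the cell surface by its receptor (Plaur). Serpins are proteins that trap serine proteases by a change of their own shape, and Serpine2 (protease nexin-1) traps thrombin, urokinase and tissue-type activator in this way. Tissue factor (F3) starts coagulation on the surface of stromal cells, Tfpi blocks that first step, and thrombomodulin (Thbd) binds thrombin and turns it towards the activation of the anticoagulant protein C. Serpinf1 and Serpinh1 have the serpin fold but do not inhibit proteases. In bone, Serpinf1 (pigment epithelium-derived factor) is required for normal mineralisation, and Serpinh1 (HSP47) is the chaperone of procollagen in the endoplasmic reticulum.

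Cell identity and depth were checked first. Totals per library lay between 11969336 and 20315934 counts, so that 3 counts corresponded to 0.148 to 0.251 CPM, far below the lowest value of any of the 9 genes. Sca-1 (Ly6a) lay at 270 to 778 CPM and CD140a (Pdgfra) at 109 to 289 CPM, whereas the endothelial genes Pecam1 and Cdh5 did not exceed 0.589 CPM. Over all libraries 13 endothelial markers, these 2 among them, summed to 6.76 to 16.2 CPM. In each group 8 to 10 of the 13 lay under 1 CPM. For 8 megakaryocyte markers the sum was 37.32 to 72.02 CPM. The part of either sum in the levels of the 9 genes was not tested. Ptprc, the gene of the negative sort marker CD45, lay at 9.31 to 17.8 CPM in batch A young libraries. It lay at 7.49 to 15.6 CPM in batch B young, 17.6 to 22.2 CPM in batch B old and 3.47 to 5.11 CPM in batch C old libraries. The summed level of 18 haematopoietic markers, none of which was at 0, was 862 to 1939 CPM in batch A young, 483 to 995 CPM in batch B young, 1002 to 1430 CPM in batch B old and 164 to 196 CPM in batch C old libraries. The summed level of 7 osteoblast markers was 253 to 303, 203 to 226, 362 to 390 and 482 to 677 CPM in the same order, and was higher in old than in young libraries both within batch B and between batches A and C. Within batch B several markers also moved with age: Pdgfra was 195 to 236 CPM in young and 109 to 128 CPM in old libraries, the sum of 12 MSC markers 4861 to 5140 and 3975 to 4324 CPM, and that of 7 osteoclast markers 1.93 to 2.04 and 8.15 to 19.3 CPM. Their part in the differences of batch B was not tested. The MSC sum differed the other way in batches A and C, with 4862 to 5822 CPM in the young and 6315 to 6389 CPM in the old libraries. Batch A young replicate 1 had the highest F3 and Plaur of its group, and batch B young replicate 2, which had the lowest haematopoietic sum of batch B, the highest Serpine2 and Plat. The differences that rest on these libraries are given with and without them.

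The length-scaled levels (CPM per kilobase of the longest transcript) placed the serpins far above the other genes. Serpinh1 was highest, with group means of 850 to 1241 CPM per kilobase, followed by Serpinf1 with 564 to 891 and Serpine2 with 154 to 432. Both plasminogen activators were transcribed, Plau at 37.1 to 46.5 CPM per kilobase and Plat at 11.6 to 16.0. The receptor Plaur lay at 13.2 to 17.8, F3 at 30.1 to 48.5, Thbd at 18.8 to 48.3 and Tfpi, the lowest, at 4.51 to 8.87 CPM per kilobase. The ratio of the highest to the lowest group mean was 2.81 for Serpine2, 2.56 for Thbd and 1.97 for Tfpi. It was smaller for F3 (1.61), Serpinf1 (1.58), Serpinh1 (1.46), Plat (1.38), Plaur (1.35) and Plau (1.25). Without batch A young replicate 1 the ratio was 1.96 for F3 and 1.18 for Plaur, and without batch B young replicate 2 it was 2.24 for Serpine2 and 1.27 for Plat. The protease inhibitor, the thrombin cofactor and the inhibitor of tissue factor therefore varied more between groups than the activators and their receptor did. The same held for F3, Serpinf1 and Serpinh1, so the larger ratios were not confined to inhibitors and the cofactor.

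**Figure D1:**
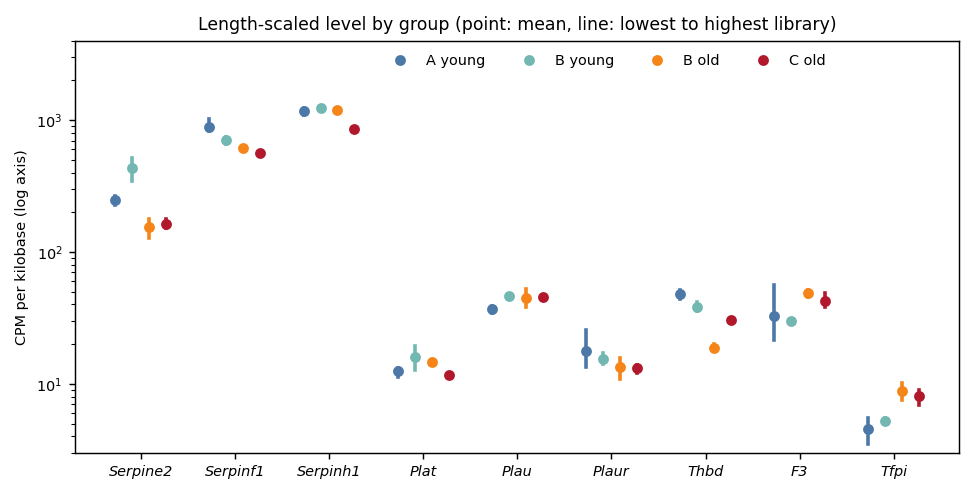
Length-scaled level (CPM per kilobase of longest transcript, log axis) of the 9 genes by group, with the group mean as a point and the range over libraries as a line. Serpinh1, Serpinf1 and Serpine2 lie above 128 CPM per kilobase in every library, and Tfpi has the lowest group means, from 4.51 to 8.87.

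Serpine2 (ENSMUSG00000026249, GRCm38 chr1:79794197-79861180, minus strand) showed the widest range. It was measured at 833, 765, 897 and 857 CPM in batch A and at 1171 and 1759 CPM in the young libraries of batch B. In old libraries it lay at 435 and 608 CPM in batch B and at 524, 601 and 519.9 CPM in batch C. All 6 young libraries thus lay above all 5 old libraries with TMM factors (a scaling by the bulk of genes), and the old cells of batches B and C overlapped. With scaling by total counts 1 old library of batch C (692 CPM) reached the lowest young library (691 CPM), both far below the batch B young libraries. Within batch B the fitted log2 difference of old to young cells was -1.49 (SE 0.18), and between batch C old and batch A young cells it was -0.55 (SE 0.08). In bulk RNA, fewer cells that express a gene and less RNA per cell cannot be told apart.

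The size of the Serpine2 difference varied with the libraries compared. Only batch B held both ages, so whether the age difference depended on the batch could not be tested. Among young cells batch B lay above batch A by 0.83 (SE 0.16) on the log2 scale, and this value became 0.50 (SE 0.13), no longer past the threshold, without batch B young replicate 2. The age difference within batch B was -1.17 (SE 0.16) without that replicate. When all young were set against all old libraries without a batch term, which mixes age with batch, the difference was -0.95 (SE 0.22). Between batches B and C of old cells the log2 difference was 0.07 (SE 0.12). The haematopoietic sum, whose part in the result was not tested, was higher in old than in young libraries of batch B and lower in batch C old than in batch A young libraries, while Serpine2 was lower in the old libraries in both cases.

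Serpinf1 (ENSMUSG00000000753, chr11:75409769-75422701, minus strand) was measured at 1601, 1854, 1506 and 1571 CPM in batch A young libraries. The batch B libraries lay at 1371 and 1206 CPM (young) and at 1099 and 1134 CPM (old), and those of batch C at 1051, 1055 and 994 CPM. The 4 groups did not overlap with TMM factors, and all young libraries exceeded all old ones, with batch A highest. With total counts batch C old (1144 to 1220.4 CPM) overlapped both groups of batch B and had a higher mean than batch B old cells, 1193 against 1131 CPM. The log2 difference of old to young cells was -0.21 (SE 0.13) within batch B, which was not past the threshold, and -0.60 (SE 0.08) between batches C and A. The log2 difference of batch B to batch A in young cells was -0.32 (SE 0.14), also not past the threshold.

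Serpinh1 (ENSMUSG00000070436, chr7:99345376-99353239, minus strand) was nearly level in batches A and B. Batch A young libraries had 2686, 2501, 2699 and 2796 CPM, those of batch B 2739 and 2905 CPM in young cells and 2685 and 2703 CPM in old cells. Batch C old libraries lay apart at 1995, 1934 and 1873 CPM, below every other library. The log2 difference was -0.07 (SE 0.12) for age within batch B and -0.48 (SE 0.07) for batch C against batch B in old cells, which became -0.29 with scaling by total counts. Against batch A young cells it was -0.41 (SE 0.07) in batch C, and -0.11 with scaling by total counts, under which it was no longer past the threshold and the ranges overlapped. The Serpinf1 to Serpinh1 count ratio, which does not depend on scaling, was 0.558 to 0.741 in batch A, 0.415 to 0.501 in batch B young, 0.409 to 0.419 in batch B old and 0.527 to 0.545 in batch C libraries. The ratio of these non-inhibitory serpins thus separated batch A from all other libraries and did not separate young from old cells.

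**Figure D2:**
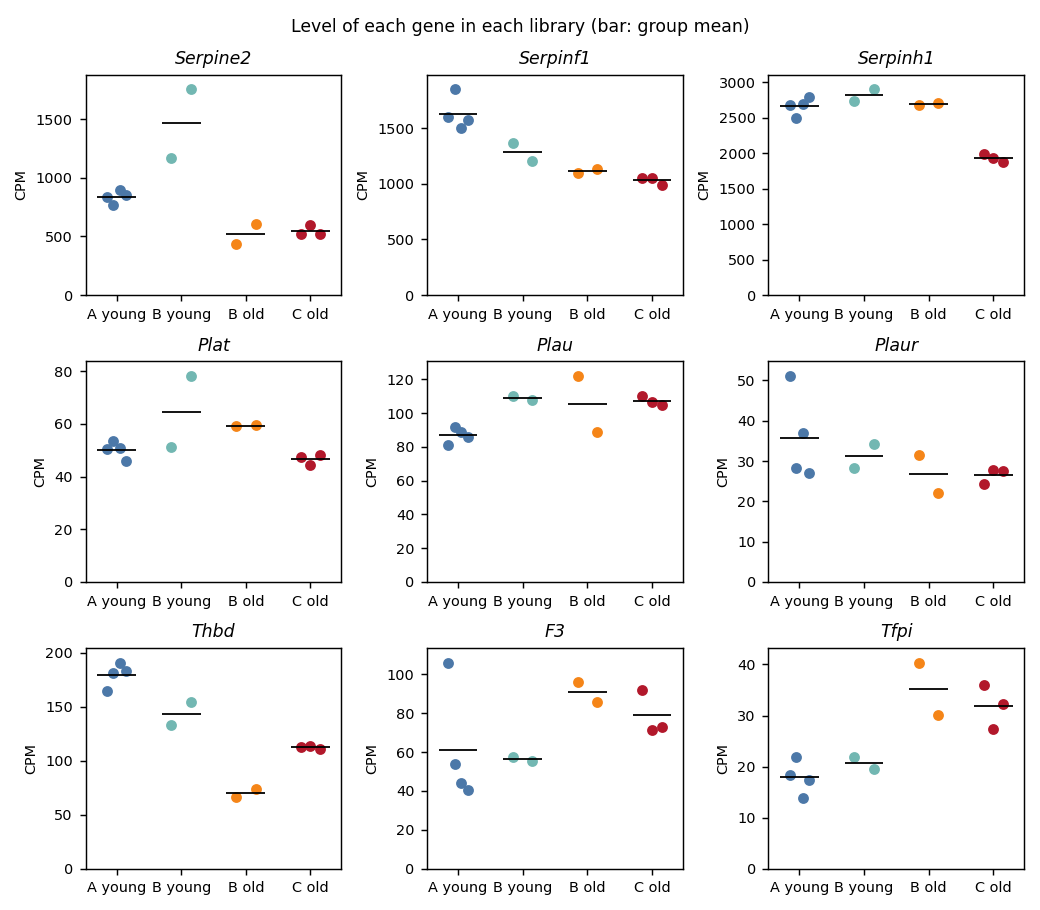
Level of each gene (CPM, linear axes from 0) in the 11 libraries, with a point for each library and a bar for the group mean. With the TMM factors used here Serpine2, Serpinf1 and Thbd lie lower in all 5 old than in all 6 young libraries, which did not hold with total counts, and Tfpi lies higher, which held with both.

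Neither plasminogen activator differed past the threshold with age in batch B. Plat (ENSMUSG00000031538, chr8:22757727-22782844, plus strand) lay at 45.8 to 53.4 CPM in batch A and at 44.5 to 48.3 CPM in batch C. In batch B the young libraries had 51.1 and 78.3 CPM and the old libraries 59.1 and 59.6 CPM. The batch B old libraries lay between the batch B young libraries. Its log2 difference for age in batch B was -0.12 (SE 0.15), and it took the other sign, 0.21 (SE 0.11), without batch B young replicate 2. Against batch B old cells Plat was lower in batch C by -0.35 (SE 0.07), and by -0.16 with scaling by total counts, which was not past the threshold. Between batch C old and batch A young cells the value was -0.04 (SE 0.07) and 0.25 with scaling by total counts, so its direction depended on the scaling.

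Plau (ENSMUSG00000021822, chr14:20836660-20843385, plus strand) was measured at 81.3 to 91.9 CPM in batch A young libraries. Batch B had 110.2 and 108 CPM in young and 122 and 88.8 CPM in old libraries, and batch C 105 to 110.3 CPM. Batch A lay below all batch C and both batch B young libraries, and the old libraries of batch B enclosed both young ones. The log2 difference was -0.05 (SE 0.13) for age within batch B, 0.35 (SE 0.11) for batch B against batch A in young cells and 0.36 (SE 0.07) for batch C old against batch A young cells. The value for batches B and A was past the threshold in 5 of 15 alternatives, and that for batches C and A in 16 of 16.

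The urokinase receptor Plaur (ENSMUSG00000046223, chr7:24462484-24475968, plus strand) was measured at 51.1, 28.2, 36.8 and 27.1 CPM in batch A young libraries. Batch B had 28.2 and 34.2 CPM in young and 31.4 and 22.0 CPM in old libraries, and batch C 24.2, 27.8 and 27.6 CPM. All neighbouring groups overlapped in the order of their means. None of the 4 log2 differences was past the threshold, and they ranged from -0.39 (SE 0.18) for batch C old against batch A young to -0.02 (SE 0.13) for batch C against batch B in old cells. Without batch A young replicate 1 the first of these became -0.16 (SE 0.11). It was past the threshold in 4 of 16 alternatives (no filter, the replicate block, and without batch A young replicate 2 or 4), and the last in 1 of 14, without batch B old replicate 2.

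Thrombomodulin and tissue factor, which act on opposite sides of coagulation, were ordered in opposite directions in batch B. Thbd (ENSMUSG00000074743, chr2:148404466-148408188, minus strand) was measured at 164, 181, 191 and 183 CPM in batch A young and at 133 and 154 CPM in the young libraries of batch B. The old libraries had 66.1 and 74.0 CPM in batch B and 113, 114 and 111 CPM in batch C. The 4 groups did not overlap with TMM factors. With total counts the batch B young libraries (126 and 153 CPM) overlapped batch C old (127 to 131 CPM). They also overlapped batch A young libraries (146 to 172 CPM). The log2 difference of old to young cells was -1.03 (SE 0.11) within batch B and -0.61 (SE 0.07) between batches C and A. In old cells batch C exceeded batch B by 0.68 (SE 0.07). The difference of old to young cells was past the threshold in 21 of 21 alternatives to the batch B value, from -1.14 to -0.79. The value of -0.79 came from all young against all old libraries without a batch term, which mixes age with batch. Among the other alternatives the smallest difference was -0.93, without batch B young replicate 2.

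F3 (ENSMUSG00000028128, chr3:121723537-121735048, plus strand) was measured at 106, 53.9, 44.4 and 40.5 CPM in batch A young libraries. Replicate 1 was the highest of these. Batch B had 57.3 and 55.3 CPM in young and 95.9 and 85.8 CPM in old libraries, and batch C 91.9, 71.6 and 73.1 CPM. Within batch B both old libraries exceeded both young ones, with a log2 difference of 0.69 (SE 0.31) that was not past the threshold. Batch A young replicate 1 widened the shared estimate of the spread. Without it the difference was 0.69 (SE 0.14) and past the threshold. This was 1 of 2 among 21 alternatives in which the batch B value was past it, the other being no filter. With batch B alone the value was 0.69 (SE 0.16) and not past the threshold. The difference of batch C old to batch A young cells went from 0.41 (SE 0.26) to 0.82 (SE 0.11) without that replicate. It was then past the threshold, as it was in 4 of 16 alternatives. The difference of batch B to batch A in young cells went from -0.10 (SE 0.29) to 0.31 (SE 0.14).

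Tfpi (ENSMUSG00000027082, chr2:84432855-84476775, minus strand) was measured at 18.3, 22.0, 13.8 and 17.5 CPM in batch A young and at 21.9 and 19.6 CPM in the young libraries of batch B. The old libraries had 40.4 and 30.1 CPM in batch B and 35.9, 27.3 and 32.3 CPM in batch C. All old libraries thus lay above all young libraries, and libraries of the same age overlapped between batches. The log2 difference was 0.76 (SE 0.19) within batch B and 0.89 (SE 0.14) between batches C and A. The first value was past the threshold in 10 of 21 alternatives, among them the fit without a batch term, with values from 0.54 to 0.96. The second was past it in 16 of 16 alternatives, although it went down to 0.38 (SE 0.13) after correction for transcript length and GC content. The osteoblast marker sum was higher in the same old libraries, and its part in the Tfpi and F3 values was not tested.

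**Figure D3:**
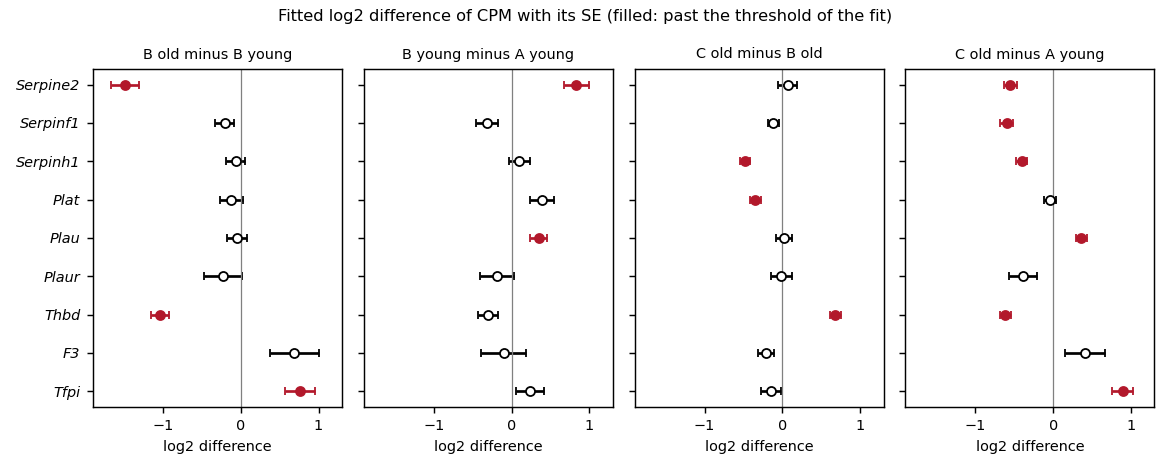
Fitted log2 difference of CPM (x axis) with its SE for each gene in the 4 comparisons, with filled symbols past an adjusted p of 0.05 in the fit over all genes. Serpine2 and Thbd lie furthest to the left in the comparison of batch B old with batch B young libraries, at -1.49 and -1.03.

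Count ratios within a library do not depend on library scaling, and they set the read counts of opposing genes side by side. They are not scaled by transcript length, and neither protein nor activity was measured. The F3 to Thbd ratio was 0.645, 0.298, 0.233 and 0.222 in batch A young and 0.432 and 0.358 in batch B young libraries. It was 1.45 and 1.16 in batch B old and 0.814, 0.628 and 0.660 in batch C old libraries. The ratios of old and young cells of batch B lay far apart, and the batch C old libraries overlapped batch A young through replicate 1 of batch A. The count ratio of Serpine2 to the sum of Plat and Plau was 5.27 to 6.52 in batch A young, 7.26 to 9.46 in batch B young, 2.40 to 4.10 in batch B old and 3.32 to 3.98 in batch C old libraries. All young libraries therefore had more Serpine2 counts per activator count than any old library. The Tfpi to F3 ratio lay between 0.173 and 0.442 in all libraries, and its groups overlapped. Without batch A young replicate 1, the source of the lowest value, it lay between 0.311 and 0.442. Although both genes had higher CPM in old than in young cells of batch B, their ratio was 0.354 to 0.382 in batch B young and 0.350 to 0.421 in batch B old libraries.

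**Figure D4:**
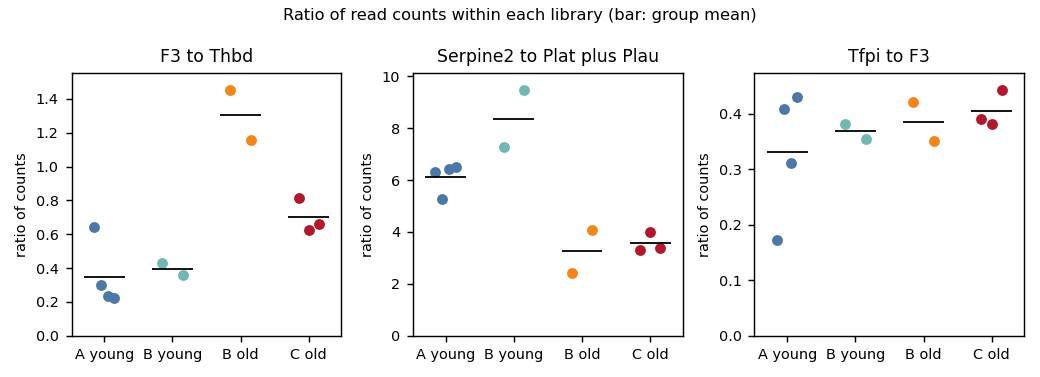
Ratio of read counts within each library (linear axes from 0), with a point for each library and a bar for the group mean. The Serpine2 to activator ratio lies between 5.27 and 9.46 in young and between 2.40 and 4.10 in old libraries, whereas the Tfpi to F3 ratio overlaps between all groups.

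The count of the 9 genes past the threshold has to be read against all genes tested. Within batch B, 3 of the 9 genes were past it for age, Tfpi higher and Serpine2 and Thbd lower in old cells. Over all 16132 genes tested the edgeR quasi-likelihood test called 2.23%, with 0.694% higher and 1.54% lower in old cells. Old and young cells of batch B did not overlap for 6 of the 9 genes (2 higher and 4 lower in old cells) and for 39.7% of all genes. Since the genes were selected on values of the same libraries, nothing is read from these shares. The median log2 difference was -0.12 over the 9 genes and 0.00 over all genes.

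Between batches of the same age, 2 of the 9 genes were past the threshold in young cells, Serpine2 and Plau, both higher in batch B than in batch A. The background was 18.1% of 14840 genes, 9.39% higher and 8.71% lower in batch B, and the groups did not overlap for 4 of the 9 genes and 39% of all genes. In old cells 3 of the 9 genes were past the threshold, Thbd higher and Serpinh1 and Plat lower in batch C than in batch B. Here the background was 64.7% of 15651 genes, 32.1% higher and 32.6% lower in the batch C cells. The groups did not overlap for 4 of the 9 genes and 75.4% of all genes. Without batch B old replicate 2 more of the 9 genes were past the threshold in old cells. Replicate 1 alone then stood for that group, and nothing is read from the count. Batch C old and batch A young cells, where age and batch cannot be told apart, differed past the threshold in 6 of the 9 genes, with Plau and Tfpi higher and Serpine2, Serpinf1, Serpinh1 and Thbd lower. The background of this comparison was 63.8% of 15021 genes, 32% higher and 31.9% lower, and the groups did not overlap for 6 of the 9 genes and 62% of all genes. With total counts in place of TMM factors the median over all genes shifted by 0.29, from 0.02 to 0.31, in batch C old against batch A young cells, and by 0.19 in batch C against batch B old cells. In the former the values became -0.26 for Serpine2, -0.31 for Serpinf1, -0.32 for Thbd, 0.65 for Plau and 1.19 for Tfpi, and 7214 genes were higher and 2734 lower in batch C in place of 4800 and 4785. The median log2 difference of the 9 genes with TMM factors was 0.10, -0.12 and -0.39 in these comparisons, against 0.01, 0.02 and 0.02 over all genes.

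The batch B libraries share no library with those of batches A and C, so that the old to young differences can be set side by side. Between batches A and C age and batch cannot be told apart. The 9 genes were chosen with values of all these libraries known, so the counts below are a description and nothing is read from them. The sign was the same for 8 of the 9 genes, with Plau as the exception, and for 52.5% of the 15021 genes tested in both. The old and young libraries were apart on the same side in both cases for 5 genes, namely Serpine2, Serpinf1, Serpinh1 and Thbd on the lower and Tfpi on the higher side, and for 14.8% of all genes. For Serpinh1 in batch B this was a gap of 2739 to 2703 CPM between the nearest libraries. With total counts 3 genes were apart on the same side in both cases, Serpinf1, Thbd and Tfpi. The share of 14.8% refers to TMM factors, and the share over all genes was not counted with total counts. The signs of Plau, Plat and Plaur in batch B were not stable. Plau kept its sign in 18 of 21 alternatives and turned with total counts, without batch B old replicate 2 and without a batch term, and Plat and Plaur kept theirs in 20 of 21.

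**Figure D5:**
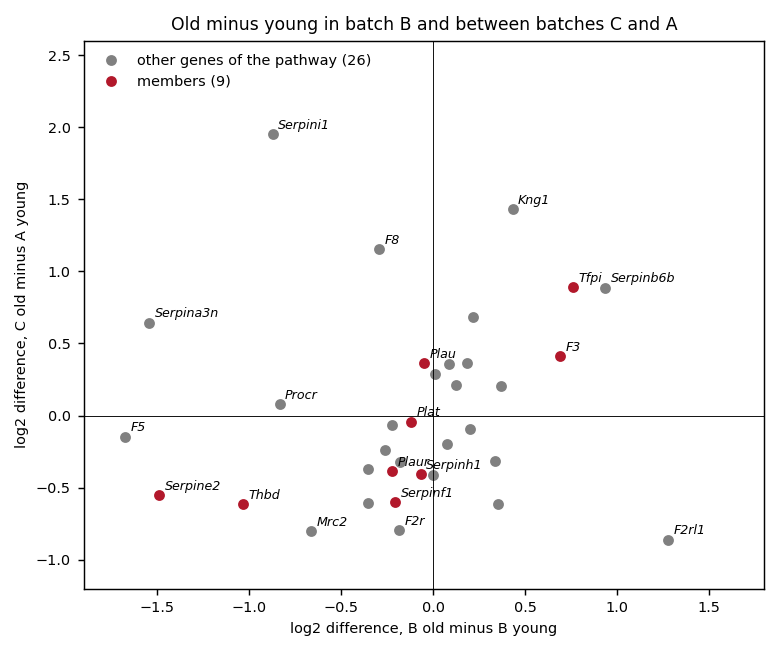
Log2 difference of batch B old to batch B young cells (x axis) against that of batch C old to batch A young cells (y axis) for the 9 genes (red) and for 26 other genes of the pathway tested in both (grey). Serpine2 and Thbd lie on the lower left and Tfpi and F3 on the upper right, whereas Serpina3n lies at -1.54 in batch B and at 0.64 between batches C and A.

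A wider list of 54 genes, chosen by function with results of these data known, placed the 9 genes in their pathway. Of these, 48 were in the table and 29 were tested for age in batch B, where 3 passed the threshold, all of them lower in old cells, against 2.23% of all genes. Mrc2, the endocytic collagen receptor that associates with urokinase and its receptor, had 523 to 562 CPM in batch A, 511 and 368 CPM in young and 266 and 288 CPM in old libraries of batch B, and 284 to 310.5 CPM in batch C. With age in batch B its log2 level fell by 0.66 (SE 0.14, edgeR adjusted p = 0.017; -0.41 without batch B young replicate 1), and from young cells of batch A to old cells of batch C it fell by 0.80 (SE 0.07, edgeR adjusted p = 7.24e-07). The young and old libraries did not overlap.

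Coagulation factor V (F5), the cofactor of the enzyme that makes thrombin, fell by 1.67 in log2 units in batch B old cells (SE 0.30, edgeR adjusted p = 0.00863). Serpina3n, an inhibitor of proteases of leukocytes, fell by 1.54 in the same comparison (SE 0.20, edgeR adjusted p = 0.000847). With all young set against all old libraries without a batch term, the values were -0.77 for F5 and -0.42 for Serpina3n, neither past the threshold. For both genes the batch B young libraries stood above all others: F5 lay at 21.6 CPM in each of them and at 5.54 to 16.2 CPM elsewhere, and Serpina3n at 46.5 and 61.3 CPM against 11.8 to 23.6 CPM. Between batch C old and batch A young cells Serpina3n rose by 0.64 (SE 0.12, edgeR adjusted p = 0.000362), the other direction than in batch B. Serpina3n has near-identical neighbours, and it is not known how reads shared with them were counted.

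Among the 17 other serpins in the table, 10 were tested for age in batch B and 1 of them passed, with a median log2 difference of 0.05. Between batches B and A of young cells 3 of 9 tested serpins passed, all higher in batch B, where 18.1% of all genes passed. In batch C against batch B old cells 7 of 10 passed, 4 higher and 3 lower, and in batch C old against batch A young cells 7 of 9, 5 higher and 2 lower, beside 64.7% and 63.8% of all genes.

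In the comparison of batch B with batch A young cells, 7 of 27 tested genes of the wider list passed, 5 higher and 2 lower, against 18.1% of all genes. The log2 difference was 1.92 for Serpina3n (SE 0.16, edgeR adjusted p = 4.73e-05), and 1.18, 1.24, 1.09 and 0.73 for Serpinb1a, Kng1, F5 and Serpinb9. Without batch B young replicate 2 it was 0.75 for Serpinb1a and 0.38 for Serpinb9. F2r, the main thrombin receptor of the cell surface, fell by 1.10, and Lrp1, which takes up complexes of serpins with plasminogen activators, fell by 1.06. A correction for transcript length and GC content moved the Lrp1 value to -0.40 and that of Serpinb9 to 0.47.

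In batch C against batch B old cells, 15 of 28 tested genes passed, 8 higher and 7 lower, beside 64.7% of all genes. S100a10, which with Anxa2 forms a plasminogen-binding complex, fell by 1.34 (SE 0.07, edgeR adjusted p = 1.42e-08), and Anxa2 fell by 0.43. After correction for transcript length and GC content the S100a10 value was -0.73, and with total counts that of Anxa2 was -0.23. The log2 difference was -0.998 for Serpinb6a, -1.36 for Serpinb1a (-0.79 without batch B old replicate 2) and -0.40 for Anxa5 (-0.21 with total counts, -0.25 with the correction). Lrp1, F8, Serping1 and F2r rose by 1.04, 0.94, 0.59 and 0.45. Without batch B old replicate 1 the Serping1 value was 0.37, and after the correction the F8 value was 0.48 and the Lrp1 value took the other sign (-0.02).

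In batch C old against batch A young cells, 15 of 26 passed, 7 higher and 8 lower, beside 63.8% of all genes. Besides Mrc2 these included Ggcx, which carboxylates the vitamin K-dependent clotting factors and fell by 0.61, F2r, which fell by 0.80, S100a10, which fell by 0.61, and Anxa5, which fell by 0.41. With total counts the values were -0.31 for Ggcx, -0.50 for F2r, -0.32 for S100a10, -0.12 for Anxa5 and -0.51 for Mrc2, and after correction for transcript length and GC content -0.23 for S100a10. Kng1 rose by 1.43, F8 by 1.15 (0.43 after that correction) and Serping1, the inhibitor of complement C1 proteases, by 0.68. Serpini1 rose by 1.95 (1.29 after the correction), but it had 0.0554 CPM in batch A young replicate 1, which is below 3 counts, and was below 3 CPM in all libraries. Serpinb genes and Kng1 also have close copies among which reads may have been split. The median of the tested genes was 0.01 for age in batch B, 0.13 and 0.05 for the batch differences and -0.08 for batch C old against batch A young cells.

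Of the anticoagulant proteins, 5 were tested for age in batch B and between batches B and A of young cells. In either comparison the edgeR test and limma-trend called 0 of them, DESeq2 called 1, and 1 had an unadjusted p under 0.05. Between batches C and B and between batches C and A, 1 of 4 was called, Anxa5. The genes for plasminogen binding and clearance had 1 of 5 tested genes past it for age, Mrc2, and the coagulation factors and thrombin receptors 1 of 9, F5.

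The genes whose levels followed the 9 genes most closely over the 11 libraries were found by Pearson correlation of log2 CPM among 16132 genes. Since libraries share age, batch and culture, these values are a description. For Serpine2 they were Tob1 (r = 0.95) and Pam (r = 0.93), for Serpinf1 Thbs4 and Rab22a (both r = 0.98), and for Serpinh1 Dynlrb1 (r = 0.997) and Eif1 (r = 0.99). Thbd was followed by Ntn4 (r = 0.97) and Adamtsl4 (r = 0.96), F3 by Pgr (r = 0.92) and Piga (r = 0.87), and Tfpi by Mcam and Fnbp1l (both r = 0.95). For Plat they were Rcn2 and Stx18, for Plau Syp and Cdh18 (all r = 0.92), and for Plaur Slc35e4 (r = 0.90) and Thumpd1 (r = 0.88). No pair of the 9 genes was among these closest matches.

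Promoter sequences from RefSeq (GRCm38.p6), 250 bases before to 50 bases after the start site, were found for 6 of the 9 genes: Serpine2, Serpinf1, Serpinh1, Plaur, F3 and Tfpi. Those of Serpine2 and Tfpi are shown because these genes were lower and higher in old cells of batch B, and those of F3 and Plaur because both were highest, within batch A, in replicate 1. Motifs were searched on both strands and are written in capitals: the AP-1 motif TGACTCA, the GC box GGGCGG and ACGTG, the core of the hypoxia response element. Overlapping matches run into a single stretch of capitals. The windows are chr1:79858616-79858915 (minus strand) for Serpine2, chr2:84476710-84477009 (minus strand) for Tfpi, chr3:121723287-121723586 (plus strand) for F3 and chr7:24462233-24462532 (plus strand) for Plaur.
Serpine2: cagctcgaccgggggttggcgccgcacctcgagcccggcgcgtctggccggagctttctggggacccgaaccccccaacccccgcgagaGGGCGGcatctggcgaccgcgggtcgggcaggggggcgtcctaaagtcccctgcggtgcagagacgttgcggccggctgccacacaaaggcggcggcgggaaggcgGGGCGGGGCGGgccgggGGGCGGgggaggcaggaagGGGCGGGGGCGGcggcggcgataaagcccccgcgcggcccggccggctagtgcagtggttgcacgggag
Tfpi: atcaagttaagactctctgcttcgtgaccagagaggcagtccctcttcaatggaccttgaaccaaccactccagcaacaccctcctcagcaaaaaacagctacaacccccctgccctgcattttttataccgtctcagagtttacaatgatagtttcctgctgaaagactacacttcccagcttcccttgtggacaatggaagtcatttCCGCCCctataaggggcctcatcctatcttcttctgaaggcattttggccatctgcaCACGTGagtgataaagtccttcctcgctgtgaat
F3: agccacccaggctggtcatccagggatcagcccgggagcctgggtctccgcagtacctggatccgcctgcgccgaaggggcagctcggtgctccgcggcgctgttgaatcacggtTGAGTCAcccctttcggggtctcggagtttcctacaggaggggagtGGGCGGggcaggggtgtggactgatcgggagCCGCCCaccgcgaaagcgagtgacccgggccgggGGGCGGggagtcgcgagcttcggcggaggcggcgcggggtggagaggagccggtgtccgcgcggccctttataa
Plaur: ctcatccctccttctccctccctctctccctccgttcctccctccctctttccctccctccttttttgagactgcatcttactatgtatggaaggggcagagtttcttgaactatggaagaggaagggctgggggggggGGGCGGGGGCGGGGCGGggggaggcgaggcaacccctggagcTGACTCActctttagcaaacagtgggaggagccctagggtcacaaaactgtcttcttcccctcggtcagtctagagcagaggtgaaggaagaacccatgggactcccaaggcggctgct

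The Serpine2 window had a GC content of 77.7% and 6 GC boxes, and the Tfpi window shown had 48.0% and 1 GC box, with 2 overlapping ACGTG matches on opposite strands beginning 17 and 18 bases after the start site. A further Tfpi window, at chr2:84474125-84474424 (minus strand, 52.3% GC), had 1 GC box and no ACGTG. F3 and Plaur each had 1 AP-1 motif, at -135 and -69 from the start site, and 3 GC boxes. The windows of Serpinh1 (1 GC box and 1 ACGTG) and Serpinf1 (1 ACGTG) held no AP-1 motif. Over 32544 promoter windows of the same length, 5.19% held TGACTCA, 35.9% GGGCGG and 19.7% ACGTG. A match gives the presence of the letters and not the binding of a factor, which was not measured here.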

How the data were processed

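RNA-seq libraries were prepared from polyadenylated RNA. Per the methods of the study, the authors ran zUMIs, with STAR and featureCounts, on single-end reads with GRCm38 and Ensembl genes. They deposited raw counts that had not been normalised. Per the file, values are whole numbers; use of strand and of molecular identifiers is not given in the sources used here. Libraries were grouped by the age and batch in the labels.

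Deposited counts were fitted in R 4.3.3 with edgeR 4.0.16 (quasi-likelihood test, two-sided, filterByExpr with a minimum count of 5, TMM factors, Benjamini-Hochberg adjustment over all genes, threshold 0.05). The age fit held all 11 libraries and a batch term, so that batch B sets the coefficient. The other comparisons used the libraries named. CPM refers to TMM-scaled totals, and correlations used log2 CPM with a prior count of 2. Positions and lengths are from GENCODE M21, which matched 28143 of 28222 genes.

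The 9 genes and all lists were chosen with earlier results of these data known. Named genes of the wider list are the 5 with the smallest p per direction and comparison, and the closest genes the 2 with the highest r, leaving out predicted and ribosomal protein genes. The values of 1 gene of the wider list are not reported here. Scripts were tested on simulated data. Alternatives were RLE factors, total counts, DESeq2 1.42.0, limma-trend (limma 3.58.1), a minimum count of 10, no filter, a length and GC correction (loess span 0.3), other covariates or samples, and leaving out each library. No pair of libraries agreed within sampling noise (chi-square per gene at least 3.25).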

Additional observations from a re-analysis of the deposited data

Results flagged for a closer look

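Of 26 genes examined for a library far from the rest of batch A young, the group with 4 libraries, 1 gene was found. F5 was measured at 16.2 CPM in batch A young replicate 1 and at 7.85 to 8.86 CPM in the other libraries of that group, and the gap to the nearest library was 0.88 of the range. About 1 in 20 such groups would be found by chance.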

How the results depend on the processing

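Of 594 log2 differences of the 9 genes under alternatives, 542 moved by less than the SD between libraries of a group, 52 moved further, and 0 of those past the threshold changed sign. For genes of the wider list 452 of 468 kept sign and side of the threshold, 15 lost the call and 1, Lrp1 in batch C against B, took the other sign (-0.021 with the length and GC correction against 1.04). Scaling by total counts moved 19 of 36 group means by more than 1 SD. It gave 150 genes higher and 185 lower for age (112 and 248 with TMM), 2004 and 1016 between batches B and A (1393 and 1293), and 6472 and 3825 between batches C and B (5029 and 5104). The number of genes called for age within batch B (360) was 123 with batch B alone, 640 with DESeq2, 2641 without a batch term, 1094 without a filter and 84 to 2007 when a library was left out (84 without batch B old replicate 1, 2007 without batch B young replicate 2). For genes of the wider list it was 1 to 7 in place of 3. Between batches B and A (2686 genes) it was 4171 in a single fit to all 11 libraries and 511 to 4031 when a library was left out. Of the 9 genes, 2 were called there, against 1 with RLE factors, without a filter or with the length and GC correction, 4 in the single fit and 0 to 2 when a library was left out; for the wider list (7) the values were 11 without a filter, 11 in the single fit and 4 to 13. Between batches C and B, 3 to 4 of the 9 genes were called in place of 3 when a batch C library was left out, beside 9047 to 9288 of all genes. The count of the 9 genes rose further without batch B old replicate 2, where replicate 1 alone stood for that group. The causes were not tested.

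Deviations of same-numbered libraries from their group means correlated at -0.11 to 0.04, which gave no sign of pairing by replicate number. With 2 to 4 libraries per group these values cannot exclude it. With the replicate number as a block, 262 genes were called for age, 2 of them among the 9 genes, and 708 between batches B and A, 1 of them among the 9; between batches C and B 9016 and 3, and between batches C and A 9088 and 8. With 2 libraries per age in batch B, small differences could not be detected. Depth was not limiting for the 9 genes.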
